A study of Homo sapiens with 6 samples.

Results

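NFE2, the BACH repressors and the small MAF proteins form a network of basic leucine zipper transcription factors that act as paired partners on DNA. The network was read from gene-level RNA tables as the 10 genes with the symbols NFE2, NFE2L1, NFE2L2, BACH1, BACH2, MAFF, MAFG, MAFK, KEAP1 and HMOX1, out of 62754 genes in the tables. All 10 are in the tables, and 9 passed the filter for testing. The rule uses gene names and no measured value, but the genes were chosen with earlier results of these data known.

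All libraries come from 1 line, HUDEP-2, which was immortalised from human erythroid progenitors. The medium of both groups held 3 units per ml of erythropoietin, 50 ng per ml of stem cell factor, 1e-06 M of the glucocorticoid dexamethasone and 1 µg per ml of doxycycline. Cells received either a lentiviral shRNA against MEN1, which encodes the chromatin protein menin (labelled MEN1 knockdown, n = 3), or a non-targeting control shRNA (labelled WT, n = 3). In both groups puromycin at 2 µg per ml was started 24 h after infection and kept for 48 h, and the cells were profiled 72 h after transduction. The labels name 1 MEN1 hairpin, so what the loss of menin did and what the hairpin did by other routes cannot be told apart. By its title the series concerns the MLL1 complex, to which menin belongs, and the repression of fetal hemoglobin.

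Cap'n'collar (CNC) proteins and BACH proteins do not bind DNA alone but pair with a small MAF protein. NF-E2, the pair of the NFE2 product with a small MAF, binds the enhancers of the globin loci in erythroid cells and drives platelet formation in megakaryocytes. NRF2 (encoded by NFE2L2) induces antioxidant genes and is held at a low level by KEAP1, while NRF1 (encoded by NFE2L1) maintains proteasome genes. BACH1 represses overlapping sites until heme binds it and releases it from DNA, and HMOX1, which encodes the heme-degrading enzyme heme oxygenase 1, is its best known target.

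A pair of short DNA patterns known as recognition sites of this network was searched in the promoter windows of these genes: the antioxidant response element core TGACNNNGC and the NF-E2 and AP-1 core TGANTCA, where N is any base, on both strands. Windows were the 250 bases before each RefSeq gene start on GRCh38.p14, of which 13 belong to 7 of the 10 genes (NFE2L1, NFE2L2, BACH1, BACH2, MAFG, MAFF and KEAP1). Of 35116 windows in the whole RefSeq table, 10.9% held the first pattern and 6.57% the second. Of the 13 windows, 3 held at least 1 match to either pattern, those of MAFF and KEAP1 to the first and that of BACH1 to the second. The share of all windows that held either pattern was not computed, so that count has no like background. Those matches are shown 5′ to 3′ on the gene's strand with 10 bases on either side, the match in capitals. The coordinates are those of the whole stretch, while the distance to the gene start is that of the first capital. The matches of GCLM and ALAS2 are shown with them. Both are genes of the lists described below with large changes, and they were chosen for display after their values were seen.
BACH1, chr21:29298864-29298890, plus strand, starting 48 bases before the gene start: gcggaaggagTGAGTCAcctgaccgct
MAFF, chr22:38201862-38201890, plus strand, starting 122 bases before the gene start, reverse orientation: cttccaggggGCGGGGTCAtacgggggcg
KEAP1, chr19:10502807-10502835, minus strand, starting 54 bases before the gene start: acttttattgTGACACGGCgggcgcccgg
KEAP1, chr19:10502784-10502812, minus strand, starting 31 bases before the gene start, reverse orientation: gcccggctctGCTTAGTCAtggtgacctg
GCLM, chr1:93909446-93909474, minus strand, starting 34 bases before the gene start, reverse orientation: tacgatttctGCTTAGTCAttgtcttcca
ALAS2, chrX:55031008-55031036, minus strand, starting 49 bases before the gene start, reverse orientation: ggtgggtgggGCTGAGTCAgaggagaagg
In ALAS2 the 2 patterns overlap on the same bases. Every stretch shown also overlaps an exon of a GENCODE v29 transcript, although it lies before a RefSeq gene start. A match describes letters and does not show that a factor binds there, and the gene-level tables do not tell which gene start a cell used.

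Transcript levels are given as TPM, a per-length share of the transcripts of each library. The libraries held 5560000000 to 10810000000 aligned bases, as inferred from the deposited coverage and FPKM. MEN1 itself was at 37.1 to 41.2 TPM in the control libraries and at 6.29 to 6.88 TPM in those labelled knockdown. The 7 erythroid markers reported (KLF1, GATA1, HBA1, HBB, TFRC, EPOR and SLC4A1) were at 1 TPM or more in every library, and their summed level was 74036 to 81754 TPM with the MEN1 shRNA against 44381 to 48476 TPM in the controls. HBA1, HBB, TFRC and SLC4A1 were the 4 of these 7 that were higher in the fit described below, and KLF1, GATA1 and EPOR did not pass. Of 10 megakaryocyte markers, 8 stayed below 1 TPM in every library, and PF4 and PPBP were listed at 0 throughout. The summed level was 35.1 to 40.5 TPM against 33.7 to 38.6 TPM in the controls. Within that sum TUBB1 was higher, at 18.3 TPM against 1.86 TPM on average, and ITGA2B lower, at 18.6 TPM against 33.8 TPM. Of 6 mast cell and basophil markers, TPSAB1 and TPSB2 stayed above 1 TPM, and the summed level was 725 to 885 TPM against 1037 to 1307 TPM in the controls. The 8 monocyte and granulocyte markers summed to 0.538 to 1.63 TPM against 2.13 to 2.60 TPM, and the 6 lymphoid markers to 3.97 to 5.83 TPM against 1.11 to 1.28 TPM. The part of these shifts in the results below was not tested, and in bulk RNA fewer cells of a type and less RNA per cell cannot be told apart.

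Differences were tested on log2(TPM + 1) with limma, MEN1 shRNA minus control shRNA, with Benjamini-Hochberg adjustment over the 14294 genes that reached 1 TPM in 3 or more of 6 libraries. Adjusted p-values of genes come from that fit unless another setting is named, with a threshold of 0.05. Where the text says that groups overlap, it means their ranges of TPM over 3 libraries each.

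BACH1, MAFG and MAFF rose with the MEN1 shRNA, while NFE2, NFE2L1, NFE2L2, MAFK, KEAP1 and HMOX1 did not pass the threshold, and none of the 9 tested genes fell. The 3 that rose are 3 of 9 tested (33.3%), against 53.6% of all tested genes called in either direction, and the 6 that did not pass stand beside 46.4% of all tested genes. In the upward direction alone the background was 22.1% of tested genes, and in the downward direction, where 0 of 9 were called, it was 31.5%. With median-of-ratios scaling the split of all called genes was nearly even, at 3758 higher and 3838 lower in place of 3158 and 4499, and the median of all genes moved from -0.07 to 0.01. The median log2 fold change over the 9 genes was 0.24, beside -0.07 over all genes tested. The share called was below the background for either direction and above that for higher genes, over only 9 genes.

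**Figure D1:**
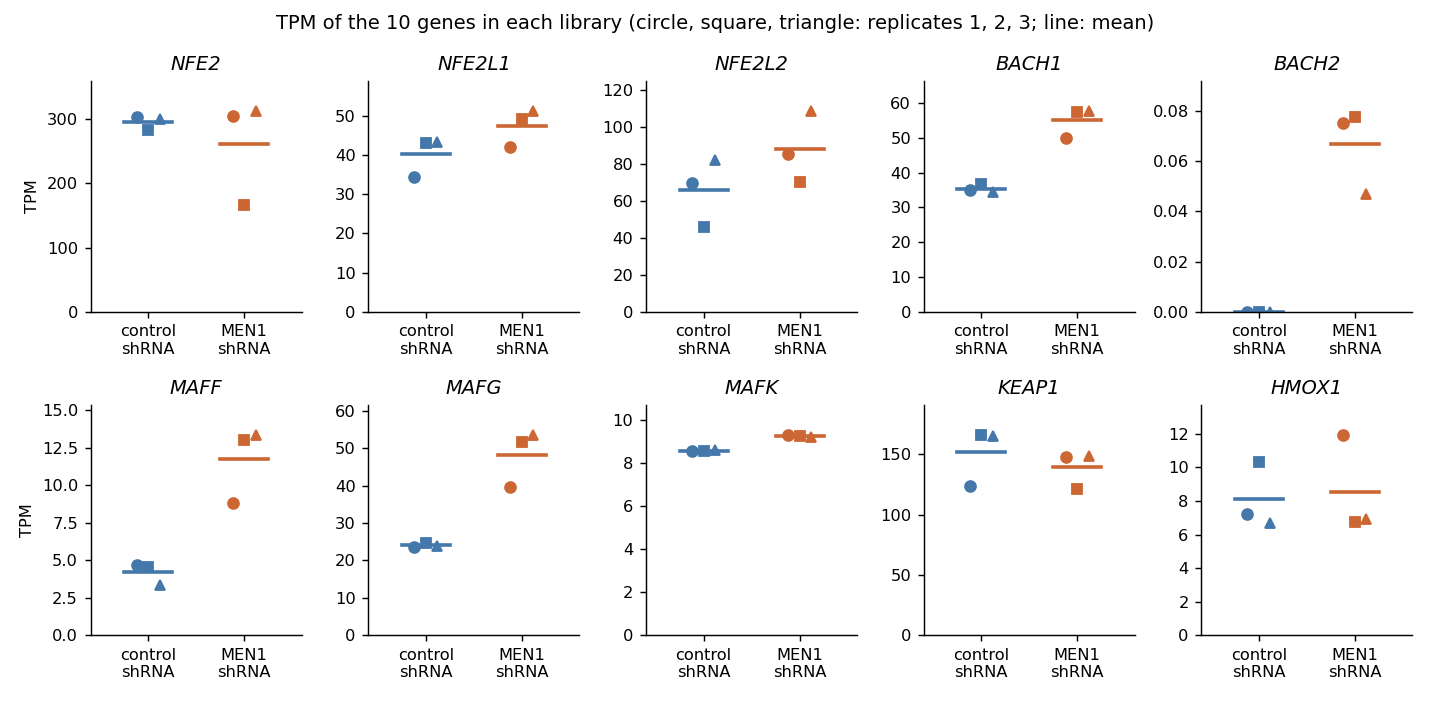
TPM (vertical axes, each from 0) of the 10 genes in the 3 control shRNA libraries (blue) and the 3 MEN1 shRNA libraries (orange), with circles, squares and triangles for replicates 1, 2 and 3 and lines at the group means. The groups are apart for BACH1, MAFG, MAFF and, by a small step, MAFK, while NFE2 is low only in MEN1 shRNA replicate 2, at 167 TPM.

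NFE2 (ENSG00000123405, chromosome 12, 54292111 to 54301015, minus strand, protein coding) encodes the hematopoietic subunit of NF-E2 and was the most abundant of the 10 transcripts in both groups. Its level was 304, 167 and 312 TPM in MEN1 shRNA replicates 1, 2 and 3, against 303, 283 and 300.2 TPM in the controls. A single library, MEN1 shRNA replicate 2, was low, and the other two of its group lay just above all controls. Averages were 261 ± 81.7 TPM with the MEN1 shRNA and 295 ± 10.8 TPM without it (SD, n = 3 libraries a group, as for all ± values below). The log2 fold change was -0.23 (95% confidence interval -0.74 to 0.28, adjusted p 0.412), and without MEN1 shRNA replicate 2 it was 0.06 (adjusted p 0.444). The spread of NFE2 within the MEN1 shRNA group, an SD of 0.51 on the log2 scale, was larger than that of 96.0% of tested genes, against a median SD of 0.13. Read coverage of the gene, which is not scaled for depth, was also lowest in that library, at 204 reads per base against 261 to 445 in the other five.

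The genes with a symbol whose centred log2(TPM + 1) over the 6 libraries lay nearest to that of NFE2 were DTX2P1-UPK3BP1-PMS2P11 (root-mean-square difference 0.062), UPF3B (0.10) and PRPF40B (0.10). UPF3B, a nonsense-mediated decay factor, was at 19.5 TPM in MEN1 shRNA replicate 2 and at 29.5 to 32.2 TPM in the other libraries. The only gene row that overlaps NFE2, an unnamed gene on the opposite strand, reached at most 1.44 TPM.

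NFE2L1 (ENSG00000082641, chromosome 17, 48048329 to 48061545, plus strand) encodes NRF1. The MEN1 shRNA libraries held 42.1, 49.1 and 51.2 TPM, and the controls 34.4, 43.2 and 43.2 TPM. The groups overlapped through MEN1 shRNA replicate 1. The log2 fold change was 0.24 (SE 0.113, interval -0.03 to 0.50, adjusted p 0.119), which did not pass, although it passed with median-of-ratios scaling (0.32, adjusted p 0.0322) and with quantile normalization (0.32, adjusted p 0.0384).

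NFE2L2 (ENSG00000116044, chromosome 2, 177218667 to 177392756, minus strand) encodes NRF2. Its level was 85.2, 70.2 and 108 TPM in the MEN1 shRNA libraries and 69.3, 45.8 and 82.0 TPM in the controls. MEN1 shRNA replicates 1 and 3 lay above all controls, and replicate 2 lay among them. The means were 87.9 ± 19.3 and 65.7 ± 18.4 TPM, and the log2 fold change was 0.43 (SE 0.228, interval -0.10 to 0.96, adjusted p 0.149). Without control replicate 2 it was 0.20 (adjusted p 0.408), and without control replicate 3 it was 0.61 (adjusted p 0.0617). The table gives NFE2L2 a span of 174 kb that crosses 11 other gene rows, 4 of them with 1 TPM or more in some library. The most abundant of these is HNRNPA3 on the opposite strand, at 284 to 336 TPM, which shares 5293 bases with the 3′ side of the gene. Whether the quantification used strand is not given, so reads of HNRNPA3 and of NFE2L2 may not be separable there. Coverage of NFE2L2 was 9.18 to 12.8 reads per base over that long model, far below that of NFE2L1 at 65.4 to 106 reads per base although its TPM was higher. AGPS, on the opposite strand, overlaps it by 11 bases and averaged 51.2 TPM in the controls and 39.0 TPM with the MEN1 shRNA (log2 fold change -0.38).

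NFE2, NFE2L1 and NFE2L2 together, the activating CNC genes, summed to 432, 286 and 472 TPM with the MEN1 shRNA and to 406, 372 and 425 TPM in the controls. The means of 397 ± 97.7 and 401 ± 27.2 TPM differed by less than the spread between replicates (2-sided exact permutation p = 1). NFE2 made up 70.5%, 58.3% and 66.2% of that sum in the MEN1 shRNA libraries, against 74.5%, 76.1% and 70.6% in the controls. NFE2 held the larger part of the sum in every library, and its share was lower in each MEN1 shRNA library than in any control, although the nearest libraries of the groups nearly touched. The difference in mean share was -8.70 percentage points, and -5.36 without MEN1 shRNA replicate 2. NFE2L2 made up 22.4% ± 2.43 with the MEN1 shRNA and 16.2% ± 3.56 in the controls, also without overlap. For the NFE2 and NFE2L2 shares the exact permutation test gave p = 0.1, below which 3 against 3 libraries cannot go. Adjusted over the 11 sums, shares and ratios compared, this became 0.138. The NFE2L1 share was 12.6% ± 4.00 against 10.1% ± 1.57, with overlapping groups (exact permutation p = 0.5, adjusted 0.55). These shares sum to the whole, so they are not separate results.

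BACH1 (ENSG00000156273, chromosome 21, 29194071 to 29630751, plus strand), the heme-sensing repressor, held 49.9, 57.4 and 57.7 TPM in the MEN1 shRNA libraries. In the controls it was at 35.1, 36.7 and 34.5 TPM. The groups were well apart, with replicate 1 the lowest of the MEN1 shRNA libraries. The means were 55.0 ± 4.41 and 35.4 ± 1.18 TPM, a ratio of 1.55 (log2 fold change 0.62, SE 0.0764, adjusted p 0.000399). The value ran from 0.57 to 0.70 over all alternatives tried. Coverage of BACH1 was 17.6 to 34.1 reads per base. Of 8 gene rows overlapping its 437 kb span, BACH1-IT1 and an unnamed gene on the same strand reached 1 TPM in some library, and neither exceeded 1.61 TPM.

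Nearest to BACH1 in pattern were ITSN2, an endocytic adaptor (root-mean-square difference 0.024), and PARP2, a DNA break sensor (0.028). Their log2 fold changes were 0.61 and 0.63.

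BACH2 (ENSG00000112182, chromosome 6, 89926528 to 90296843, minus strand), a repressor best known from B cells, was near the limit of detection. Its values were 0.0754, 0.0777 and 0.0470 TPM in the MEN1 shRNA libraries, and it was listed at 0 in all 3 controls. With coverage of at most 0.0149 reads per base it lay below the filter and is given no fold. In a fit with no filter on low values BACH2 passed the threshold (adjusted p 0.0305), with a difference of 0.09 on the log2(TPM + 1) scale. BACH1 was the only BACH gene above the filter.

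Set against the activators, BACH1 TPM was 0.116, 0.201 and 0.122 of the summed NFE2, NFE2L1 and NFE2L2 TPM with the MEN1 shRNA. It was 0.0863, 0.0988 and 0.0810 of that sum in the controls. The ratio was higher in each MEN1 shRNA library, by 0.0574 on average (exact permutation p = 0.1, adjusted 0.138). Without MEN1 shRNA replicate 2, in which NFE2 was low, the difference was 0.0302. Against NFE2L2 alone the ratio was 0.646 ± 0.152 and 0.576 ± 0.201, with overlapping groups (exact permutation p = 0.5), and the sign of the difference turned without MEN1 shRNA replicate 2 (-0.0173) or control replicate 3 (-0.00889).

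The small MAF genes encode short partner proteins with no activation domain of their own. The longest run of identical bases shared between their GENCODE v29 transcripts was 37 bases, for MAFG and MAFK. For MAFF and MAFG it was 21 bases, and for MAFF and MAFK 29 bases. Each run is shorter than a read of 151 bases, a length inferred from the deposited coverage.

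MAFG (ENSG00000197063, chromosome 17, 81918270 to 81927735, minus strand) was the most abundant of them in every library. Its level was 39.6, 51.5 and 53.5 TPM in MEN1 shRNA replicates 1, 2 and 3, against 23.7, 24.7 and 23.8 TPM in the controls. The lowest MEN1 shRNA library, replicate 1, was well above the highest control. The means were 48.2 ± 7.52 and 24.1 ± 0.565 TPM, a ratio of 2.00 (log2 fold change 0.96, SE 0.114, adjusted p 0.000336). SIRT7 on the same strand shares 3054 bases with the 3′ part of MAFG and stood at 23.4 to 27.3 TPM in all libraries (log2 fold change 0.08, adjusted p 0.475). An unnamed gene within MAFG on the opposite strand, ENSG00000264769, was at 1.92 TPM against 1.14 TPM on average (log2 fold change 0.45, adjusted p 0.0279), a call that 7 of the alternatives lost. Whether the quantification used strand is not given in the sources used here, so reads of this row and of MAFG may not be separable.

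MAFF (ENSG00000185022, chromosome 22, 38200767 to 38216507, plus strand), a stress-inducible small MAF gene, had the largest fold change of the 9 tested genes. The MEN1 shRNA libraries held 8.83, 13.0 and 13.4 TPM, and the controls 4.72, 4.56 and 3.36 TPM. The groups were apart, and replicate 1 was again the lowest of the MEN1 shRNA group. The means were 11.7 ± 2.53 and 4.21 ± 0.741 TPM, a ratio of 2.79 (log2 fold change 1.28, SE 0.181, adjusted p 0.000756). With a pseudocount of 5 the log2 fold change was 0.85, beside 0.86 for MAFG, so the rank of MAFF depended on that setting. The table's span for PLA2G6, a phospholipase gene on the opposite strand, covers 14012 bases of MAFF. With no strand setting given, reads of PLA2G6 and of MAFF may not be separable there. PLA2G6 averaged 106 TPM in the controls and 87.8 TPM with the MEN1 shRNA (log2 fold change -0.27, adjusted p 0.0185). Its call held in only 9 of 17 alternatives and was lost, for one, with median-of-ratios scaling (-0.18).

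MAFK (ENSG00000198517, chromosome 7, 1530702 to 1543043, plus strand), the small MAF first purified with NF-E2, held 9.30, 9.23 and 9.20 TPM in the MEN1 shRNA libraries. It was at 8.53, 8.54 and 8.62 TPM in the controls. The groups did not overlap but lay only 7.97% apart in their means. The log2 fold change of 0.10 (SE 0.0829, interval -0.09 to 0.29, adjusted p 0.348) did not pass. The SDs of MAFK within the groups, 0.0071 and 0.0068 on the log2 scale, were smaller than those of nearly all tested genes, and limma draws such a spread towards that of genes of like level. Without overlap and higher with the MEN1 shRNA were 4 of the 9 tested genes, beside 25.8% of all tested genes. Without overlap and lower were 0 of the 9, beside 35.9%, and the background in either direction was 61.8%.

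**Figure D2:**
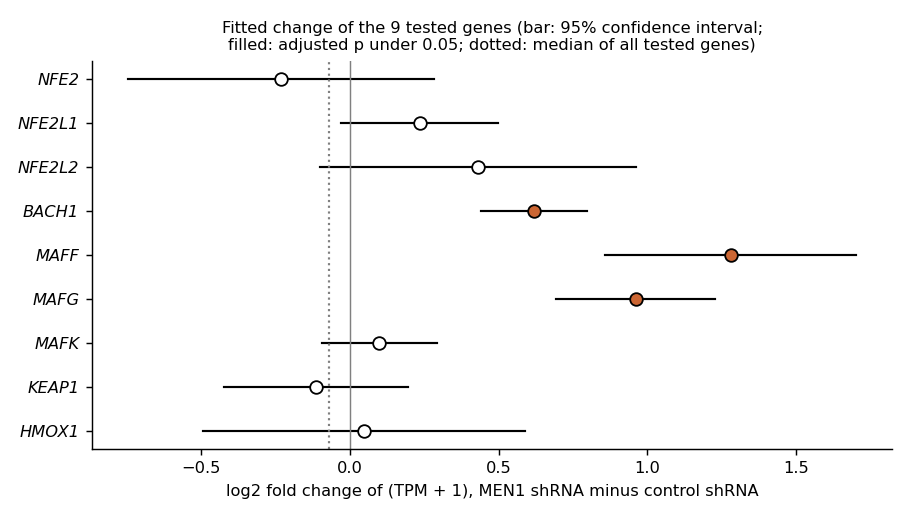
Log2 fold change of (TPM + 1), MEN1 shRNA minus control shRNA (horizontal axis), for the 9 tested genes with 95% confidence intervals; filled points passed an adjusted p of 0.05, the grey solid line marks 0 and the dotted line marks the median of all tested genes at -0.07. BACH1, MAFF and MAFG lie at 0.62, 1.28 and 0.96 with intervals above 0, and the intervals of the other 6 genes include 0.

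Summed over MAFF, MAFG and MAFK, small MAF transcripts were at 57.7, 73.8 and 76.1 TPM with the MEN1 shRNA. In the controls the sum was 36.9, 37.8 and 35.8 TPM. The means of 69.2 ± 9.99 and 36.9 ± 1.01 TPM give a ratio of 1.88 (exact permutation p = 0.1, adjusted 0.138). The shares of the 3 genes in the pool were also apart. In the MEN1 shRNA libraries MAFK was 13.6% ± 2.21 of the sum, against 23.2% ± 0.746 in the controls, MAFF was 16.8% ± 1.35 against 11.4% ± 1.78, and MAFG was 69.6% ± 0.892 against 65.3% ± 1.22. Each of these shares was apart between the groups (exact permutation p = 0.1 each, adjusted 0.138), and they sum to the whole, so they are not separate results.

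The small MAF sum was 0.120, 0.215 and 0.144 of the summed TPM of its partner genes NFE2, NFE2L1, NFE2L2 and BACH1 with the MEN1 shRNA. In the controls it was 0.0836, 0.0926 and 0.0779 of that sum. Partner transcripts thus outnumbered small MAF transcripts in every library, by less with the MEN1 shRNA. The mean ratios differed by 0.0747 (exact permutation p = 0.1, adjusted 0.138), and by 0.0471 without MEN1 shRNA replicate 2. The ratios to summed partners were added after the data were seen, and they are ratios of RNA, with no protein measured.

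**Figure D3:**
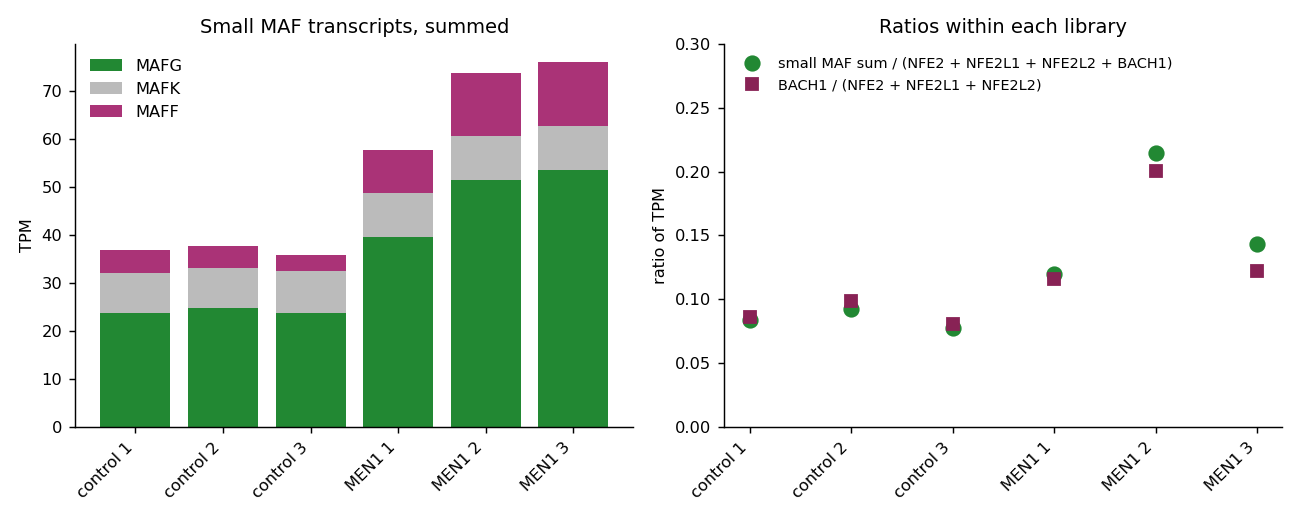
Left, summed TPM of the small MAF genes in each library, stacked by gene (MAFG green, MAFK grey, MAFF purple); right, ratios of TPM in each library, with circles for the small MAF sum over its partners and squares for BACH1 over NFE2, NFE2L1 and NFE2L2. The MAFK segment is nearly the same height in all 6 bars, both ratios are above the controls in each MEN1 shRNA library, and both are highest in MEN1 shRNA replicate 2.

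KEAP1 (ENSG00000079999, chromosome 19, 10486125 to 10503558, minus strand), the adaptor that sends NRF2 to degradation, was the second most abundant of the 10 in both groups. Its level was 148, 121 and 149 TPM in the MEN1 shRNA libraries and 123, 166 and 165 TPM in the controls. The groups overlapped, and 1 library of each group was low. The log2 fold change was -0.11 (SE 0.133, interval -0.42 to 0.20, adjusted p 0.505). An unnamed gene inside it on the same strand, ENSG00000267197, reached at most 3.04 TPM.

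HMOX1 (ENSG00000100292, chromosome 22, 35380361 to 35394214, plus strand) held 11.9, 6.73 and 6.94 TPM in the MEN1 shRNA libraries. In the controls it was at 7.24, 10.3 and 6.72 TPM. MEN1 shRNA replicate 1 and control replicate 2 stood above the others, and the groups overlapped throughout. The log2 fold change was 0.05 (SE 0.232, interval -0.49 to 0.59, adjusted p 0.881). The named genes nearest to HMOX1 in pattern, PPP2R2D, SOCS2-AS1 and SCAPER, were farther from it (root-mean-square difference 0.12 to 0.14) than ITSN2 and PARP2 were from BACH1. No other gene row overlaps HMOX1.

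In the controls the order of mean levels ran from NFE2 (295 TPM) and KEAP1 (151 TPM) through NFE2L2 (65.7), NFE2L1 (40.3), BACH1 (35.4) and MAFG (24.1) to MAFK (8.56), HMOX1 (8.09) and MAFF (4.21), with BACH2 at 0. The ranges of NFE2L1 and BACH1 overlapped there, as did those of MAFK and HMOX1. With the MEN1 shRNA, BACH1 (55.0 TPM) and MAFG (48.2) stood above NFE2L1 (47.5), with overlapping ranges between each of these neighbours, and MAFF (11.7) stood above MAFK (9.25) and HMOX1 (8.54), also with overlapping ranges.

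Other members of the family were few. NFE2L3, which encodes NRF3, rose to 6.58 ± 0.307 TPM from 4.34 ± 0.511 TPM (log2 fold change 0.51, adjusted p 0.00731, and 0.31 with a pseudocount of 5). Among the large MAF genes, MAF was listed at 0 in all libraries, MAFA stayed under the filter, and NRL was at 0.958 to 2.01 TPM in the controls and 1.42 to 2.51 TPM in the MEN1 shRNA libraries (log2 fold change 0.21, adjusted p 0.451).

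Of 16 genes tested that control the turnover of NRF2, NRF1 and BACH1 proteins, 2 were higher, 3 were lower and 11 did not pass, with a median log2 fold change of -0.05. The 31.2% called stand beside 53.6% of all tested genes, and with median-of-ratios scaling 3 were higher and 2 lower. SQSTM1, which encodes the autophagy receptor p62 that can draw KEAP1 away from NRF2, rose to 234 ± 50.0 TPM from 120 ± 2.83 TPM (log2 fold change 0.93, SE 0.148, adjusted p 0.00133), with 176, 263 and 262 TPM in MEN1 shRNA replicates 1, 2 and 3. VCP, the segregase that extracts NRF1 from the endoplasmic reticulum, was the other gene that rose (log2 fold change 0.34, adjusted p 0.00472). PGAM5, a mitochondrial phosphatase that binds KEAP1, fell to 45.3 ± 3.12 TPM from 86.9 ± 3.28 TPM (log2 fold change -0.93, adjusted p 5.6e-05). NGLY1, the enzyme that removes sugar chains from NRF1, fell to 38.6 ± 2.11 TPM from 67.7 ± 3.33 TPM (log2 fold change -0.79, adjusted p 9.3e-05). BTRC, a ubiquitin ligase adaptor for NRF2, had a log2 fold change of -0.26 (adjusted p 0.0259). The BTRC call held in only 8 of 17 alternatives and was lost, for one, with median-of-ratios scaling (-0.18). NEDD8, the most abundant gene of this group that did not pass, had a log2 fold change of -0.18 (adjusted p 0.327). VCP and BTRC are outside the rule for named genes and were chosen after their values were seen.

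Known target genes of NRF2 and its partners went both ways. Of 25 antioxidant target genes tested, 11 were higher, 8 were lower and 6 did not pass, with a median log2 fold change of 0.03. That is 76.0% called, beside 53.6% of all tested genes. GCLM, the regulatory subunit of the glutathione-making enzyme and the gene whose promoter stretch is shown above, held 51.2, 57.5 and 56.1 TPM in the MEN1 shRNA libraries and 21.6, 22.1 and 21.5 TPM in the controls (log2 fold change 1.30, SE 0.0690, adjusted p 2.4e-05). NQO1, a quinone reductase, held 12.7, 17.5 and 16.7 TPM in the MEN1 shRNA libraries against 3.15, 2.91 and 2.99 TPM (log2 fold change 2.04, SE 0.133, adjusted p 3.5e-05). With a pseudocount of 5 its log2 fold change was 1.36. For both genes the groups were far apart and MEN1 shRNA replicate 1 was the lowest of its group.

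AKR1C3, an aldo-keto reductase, rose to 16.6 ± 2.37 TPM from 2.68 ± 0.167 TPM (log2 fold change 2.25, adjusted p 2.4e-05). Its value was 1.49 with a pseudocount of 5 and 0.53 from gene-level coverage, and it has close paralogs among which reads may be divided. SLC7A11, the cystine importer that feeds glutathione synthesis, rose to 16.0 ± 2.75 TPM from 3.67 ± 0.279 TPM (log2 fold change 1.85). Against these, MGST1, a microsomal glutathione transferase, fell to 44.3 ± 7.71 TPM from 131 ± 9.44 TPM (log2 fold change -1.56), and PGD, an enzyme of the pentose phosphate pathway, fell to 131 ± 19.9 TPM from 376 ± 14.7 TPM (-1.52). TALDO1, of the same pathway, did not pass (-0.07, adjusted p 0.297). SLC7A11, MGST1 and PGD were chosen after their values were seen. Without MEN1 shRNA replicate 2 the count of antioxidant targets past the threshold was 12 of 25 in place of 19. Of these 12, 6 were higher and 6 lower. In that fit 6577 of all 14294 tested genes passed, 18.7% higher and 27.4% lower. The excess of called targets over the background was thus much smaller without that library.

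The heme and iron list had 13 tested genes, of which 7 were higher, 3 were lower and 3 did not pass (median log2 fold change 0.31). It covers heme breakdown, heme export and BACH1 iron targets, and also genes of heme synthesis, among them ALAS2, and EIF2AK1. The 76.9% called stand beside the same background of 53.6%, and with median-of-ratios scaling 7 were higher and 1 was lower. HMOX2, the constitutive heme oxygenase, was at 41.0 to 44.5 TPM in the MEN1 shRNA libraries and 40.8 to 43.5 TPM in the controls (log2 fold change 0.01, interval -0.14 to 0.16, adjusted p 0.939). ALAS2, the erythroid enzyme that starts heme synthesis, held 795, 795 and 751 TPM in the MEN1 shRNA libraries and 387, 342 and 420 TPM in the controls (log2 fold change 1.03, SE 0.0797, adjusted p 6.1e-05). EIF2AK1, which encodes the heme-regulated kinase HRI, rose to 312 ± 12.3 TPM from 181 ± 3.97 TPM (log2 fold change 0.78, adjusted p 3.9e-05). SLC40A1, the iron exporter ferroportin, went the other way, from 243, 254 and 260 TPM in the controls to 62.8, 48.5 and 50.8 TPM (log2 fold change -2.21, SE 0.0978, adjusted p 1.6e-05).

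Of 33 proteasome genes, the classical targets of NRF1, 9 were higher, 7 were lower and 17 did not pass (median log2 fold change 0.03). The 48.5% called stand beside 53.6% of all tested genes, and median-of-ratios scaling gave 11 higher and 5 lower. PSME4, a proteasome activator, rose to 151 ± 15.8 TPM from 68.4 ± 2.84 TPM (log2 fold change 1.13, adjusted p 5.4e-05). The core subunit genes PSMA3 and PSMA5 fell by 0.67 and 0.64 on the log2 scale (adjusted p 0.000132 and 0.000231, and a fall of PSMA5 by 0.34 from gene-level coverage). PSMB1, the most abundant that did not pass, had a log2 fold change of 0.03 (adjusted p 0.701).

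Of 12 megakaryocyte and platelet genes, in which NF-E2 acts in its other lineage, only TUBB1 and ITGA2B passed the filter. TUBB1, the platelet beta-tubulin, held 16.5, 17.7 and 20.6 TPM in the MEN1 shRNA libraries and 1.67, 2.26 and 1.66 TPM in the controls. That is a ratio of means of 9.82 (log2 fold change 2.75, SE 0.132, adjusted p 1.7e-05, and 1.76 with a pseudocount of 5). ITGA2B, an integrin gene shared by early erythroid and megakaryocytic cells, fell to 18.6 ± 2.35 TPM from 33.8 ± 2.44 TPM (log2 fold change -0.83, adjusted p 0.000456). TBXAS1 and RAB27B, also linked to NF-E2 in platelets, stayed below the filter.

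**Figure D4:**
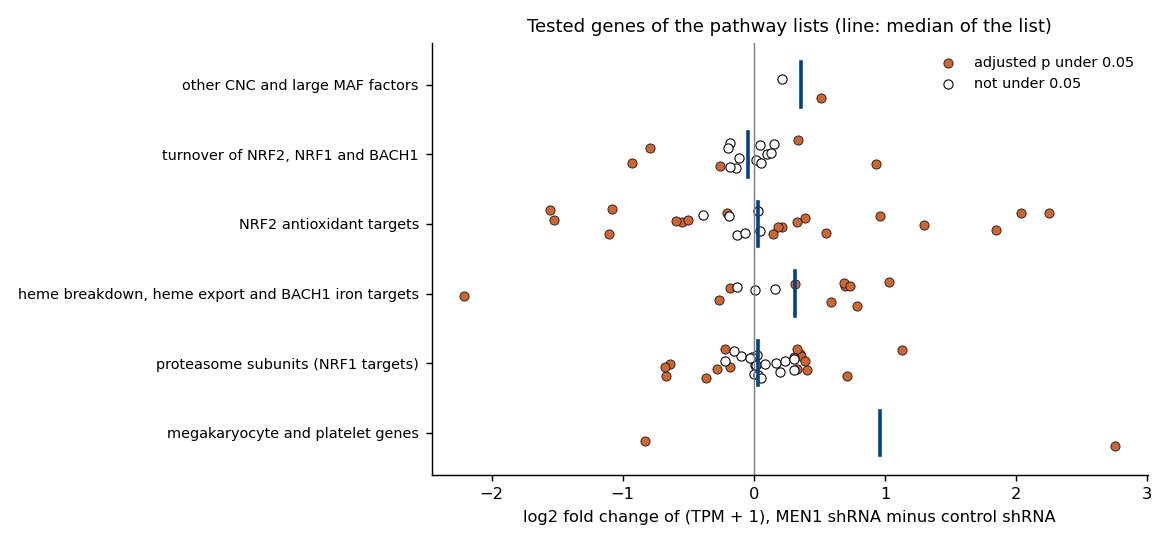
Log2 fold change of (TPM + 1), MEN1 shRNA minus control shRNA (horizontal axis), for each tested gene of the 6 pathway lists (rows); filled points passed an adjusted p of 0.05 and the vertical blue bars mark list medians. The antioxidant targets spread from -1.56 to 2.25 around a median of 0.03, and the proteasome genes lie closer to 0, from -0.68 to 1.13.

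BACH1, MAFG and MAFF were higher and past the threshold under each of the alternatives tried. The values of MAFF ran from 0.85 with a pseudocount of 5 to 1.46 without MEN1 shRNA replicate 1, and those of MAFG from 0.86 to 1.09.

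**Figure D5:**
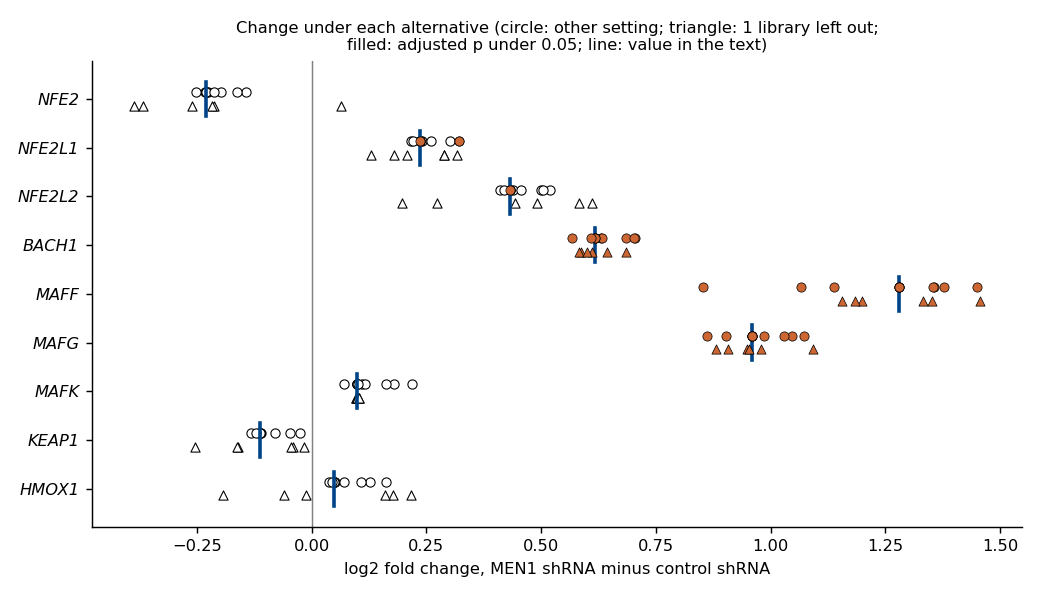
Log2 fold change (horizontal axis) of each tested gene under each alternative, with circles for other settings, triangles for fits that leave out 1 library, filled symbols for an adjusted p under 0.05 and blue bars for the values given in the text. All symbols of BACH1, MAFF and MAFG are filled and right of 0, and those of NFE2 and HMOX1 fall on both sides of 0. The filled circles of NFE2L1 and NFE2L2 are the scalings named in the text and a fit with the replicate number as a block.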

How the data were processed

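Poly(A) RNA was made into directional libraries, per the labels' protocols. The submitters' processing notes name STAR 2.7.1a, StringTie 2.0.4, Picard 2.20.4, Trimmomatic, FastQC and hg38, without their roles; the sources used here give neither the annotation nor a strand setting. The authors deposited TPM, FPKM and coverage per gene, per the file headers; TPM has the same total in each library, coverage is the signal per exonic base before any depth scaling, and residues below 0 in control replicate 2 (1 TPM value and 2 coverage values) were set to 0. The tables hold no counts, so no count model was fitted. Depth was inferred from the ratio of coverage to FPKM in genes with 1 transcript. Gene positions are those of the tables, of which 99.97% of shared identifiers overlap their GENCODE v29 position on GRCh38.

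Genes with at least 1 TPM in 3 of 6 libraries went into limma 3.58.1 (R 4.3.3), with eBayes fitting a trend of variance on level, on log2(TPM + 1), which understates changes of low genes. Sums, shares and ratios were compared with exact permutation tests in Python 3.11.15. Simulated data were used to test the limma step. Replicates are labelled as biological replicates of 1 line, but not as separate cultures, so p-values measure the spread between these libraries, which may be technical. The members and lists were chosen with earlier results of these data known. Named genes are the 10 members, MEN1, the 3 genes of each list with the lowest adjusted p past the threshold, the most abundant tested gene of each list not past it, the 3 genes nearest in pattern to NFE2, BACH1 and HMOX1, and genes overlapping a member. A few genes that these rules or the marker lists name are not reported here. Promoter sequences are from RefSeq on GRCh38.p14. The alternatives varied the pseudocount, filter, unit, scaling, trend, replicate block and libraries.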

Additional observations from a re-analysis of the deposited data

How the results depend on the processing

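Of 394 comparisons of the network's counts, fold changes, sums and ratios with an alternative, 384 moved no tested gene across 0 or the threshold, no count by more than 1.5 times and no sum, share or ratio by more than 1 SD. Among these the summed CNC activators, at 0.989 of the controls, were at 1.01 with FPKM, 1.05 with median-of-ratios scaling and 0.895 to 1.13 with 1 library left out, and the BACH1 to NFE2L2 difference ran from -0.0173 to 0.182 with 1 library left out. The gene-level coverage setting and the ratios to summed partners were chosen after seeing the data. Counts of all genes past the threshold ran from 6345 to 7674, and from 6577 to 7542 with 1 library left out.

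NFE2L1 passed the threshold with median-of-ratios scaling (0.32, adjusted p 0.0322), quantile normalization (0.32, adjusted p 0.0384) and the replicate block (0.24, adjusted p 0.0386). NFE2L2 passed with the replicate block (0.43, adjusted p 0.00842), which raised the count of network genes past the threshold from 3 to 5; its adjusted p ran from 0.00842 to 0.408. The labels do not say what a replicate number shares between the groups. Over all tested genes, deviations from the group means correlated at 0.017, -0.027 and -0.012 between libraries of the same number. Such a correlation over all genes cannot decide whether the libraries are paired for a single gene. The block gave 7012 genes in place of 7657. Leaving out each library in turn gave log2 fold changes of -0.39 to 0.063 for NFE2, with the sign turning only without MEN1 shRNA replicate 2, and of -0.19 to 0.22 for HMOX1, with the sign turning without MEN1 shRNA replicate 1 (-0.19) and without control replicates 1 (-0.013) and 3 (-0.060). Neither gene passed the threshold under any alternative. The count of antioxidant targets ran from 12 to 18 with 1 library left out. The sign of genes near 0 also turned for HMOX2 (-0.030 to 0.032 with 1 library left out, -0.011 from gene-level coverage), PSMB1 (-0.021 with quantile normalization, -0.023 to 0.066 with 1 library left out) and TALDO1 (0.017 with median-of-ratios scaling). FTL, of the heme and iron list, turned from -0.18 to 0.041 with quantile normalization. The replicate block left 6 higher and 1 lower of the 13 tested genes of that list. Over all tested genes that fit called 20.3% higher and 28.8% lower. The cause of these shifts was not tested. With no counts in the tables, the depth behind a TPM is known only through coverage.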
